A study of Mus musculus with 42 samples.

Results

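The Zfp genes are mouse genes named for zinc finger proteins, most of them DNA-binding proteins with tandem C2H2 fingers. They were taken here as every row of the RNA-seq table whose symbol is Zfp followed by digits only, without Zfp352, which gave 231 of the 15737 genes analysed. No expression value entered that rule. The rows at hand covered chromosomes 1 to 11, and Zfp genes of other chromosomes were not analysed here.

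The study asked how the synthesis of NAD+, an essential cofactor, bears on the short first wave of zygotic transcription in ICR mouse embryos, called minor zygotic gene activation. RNA was measured in 18 samples of 9 groups with 2 samples each. Untreated early 2-cell embryos were collected 34 h after the ovulating hormone hCG. Late 2-cell embryos were collected at 48 h as a control, after FK866 (0.01 µM), after FK866 with NMN (10 µM), after trichostatin A (TSA, 10 nM), and after Sirt1 knockdown. The 4-cell embryos were collected at 58 h as a control, after FK866, and after FK866 with NMN. FK866 blocks NAMPT, the salvage enzyme of NAD+ synthesis, and NMN is the NAD+ precursor made by that enzyme. TSA inhibits histone deacetylases, and SIRT1 is a deacetylase that consumes NAD+. The knockdown combined siRNA with Trim21 mRNA and an antibody against SIRT1, all injected into zygotes, so that both the transcript and the protein were targeted. Each library was made from a few whole embryos, and embryos that lag behind in development cannot be told apart from embryos that express a gene differently.

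In mammals the largest family of C2H2 zinc finger proteins carries a KRAB domain. A KRAB zinc finger protein reads a DNA sequence, often inside a retrotransposon, and recruits TRIM28 (KAP1), which brings the histone methyltransferase SETDB1 and HP1 proteins and silences chromatin there. The genes arose by repeated tandem duplication and lie in clusters, and in the mouse clusters of chromosomes 2 and 4 are known for repressing endogenous retroviruses in embryonic stem cells. Members without a KRAB domain include activators of transcription, insulator and promoter factors, and RNA-binding proteins.

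A reading frame was found for 224 members, and 131 of these were KRAB-type, meaning that at least 16 of 22 conserved letters of the KRAB A box were matched, while 93 were not. KRAB-type members had a median of 11 C2H2 fingers and the others a median of 8. Zfp142 had the most, 36. Chromosome 7 held 89 members, chromosome 4 held 27, chromosome 2 held 25 and chromosome 8 held 24. Clusters of at least 4 members, with at most 500 kb between neighbouring starts, numbered 18 and held 135 members.

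The longest run was on distal chromosome 4 (GRCm38, chr4:145510759-147848366), where 18 members, all of them KRAB-type, lay within 2.34 Mb. Their promoters are shown because the run is the longest and 9 of its 18 members were more than 2-fold higher with FK866, as described further on. RefSeq gave an entry within 100 bases of the annotated start for 10 of the 18. Of each, the 250 bases before the start were compared. The sequences below are on GRCm38.p6, each 5′ to 3′ on the gene's own strand and ending at the base before the start. Capitals mark the palindrome TAATTA, the CCAAT box (written ATTGG when it lies on the other strand), the GC box GGGCGG and the E box CACGTG. In the run ATTGGGCGG the CCAAT box and the GC box overlap.

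Zfp982, chr4:147492167-147492416, plus strand: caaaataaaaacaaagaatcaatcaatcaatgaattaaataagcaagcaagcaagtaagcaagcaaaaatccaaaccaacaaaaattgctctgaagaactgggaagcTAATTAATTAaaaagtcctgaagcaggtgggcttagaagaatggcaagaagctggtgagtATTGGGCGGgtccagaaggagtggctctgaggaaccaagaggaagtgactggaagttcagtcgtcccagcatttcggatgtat
Zfp985, chr4:147553027-147553276, plus strand: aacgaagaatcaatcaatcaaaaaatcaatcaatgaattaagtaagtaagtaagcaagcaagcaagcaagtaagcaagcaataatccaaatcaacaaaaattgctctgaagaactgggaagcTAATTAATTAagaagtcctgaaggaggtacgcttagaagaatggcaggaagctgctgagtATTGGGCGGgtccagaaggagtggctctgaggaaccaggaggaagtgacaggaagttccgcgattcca
Zfp987, chr4:146097062-146097311, plus strand: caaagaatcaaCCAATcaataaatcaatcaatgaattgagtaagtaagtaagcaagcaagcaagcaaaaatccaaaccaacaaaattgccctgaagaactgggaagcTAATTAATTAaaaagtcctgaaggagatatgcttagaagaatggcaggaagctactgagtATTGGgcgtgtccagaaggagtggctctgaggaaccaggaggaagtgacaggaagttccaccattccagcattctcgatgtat
Zfp933, chr4:147848419-147848668, minus strand: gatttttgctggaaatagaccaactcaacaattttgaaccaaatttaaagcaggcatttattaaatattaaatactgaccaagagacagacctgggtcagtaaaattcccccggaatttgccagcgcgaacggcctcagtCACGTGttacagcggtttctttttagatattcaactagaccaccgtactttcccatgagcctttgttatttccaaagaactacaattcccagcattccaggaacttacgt

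Apart from Zfp933, the 9 promoters were copies of one another, with 70.4% to 96.0% of positions identical over 36 pairs. Zfp982 and Zfp985 shared 84.4% of positions, and Zfp982 and Zfp987 shared 87.2%. Zfp933, at the end of the run, was 50.0% to 54.8% identical to the others. The TAATTA palindrome, which is the core of many homeodomain sites, was in 9 of the 10 promoters, against 4.8% of all 32851 promoters of this length. Of 187 other members, 6 (3.2%) had it. Shares of other members count genes with the motif in any of their promoters, while shares of all promoters count promoters singly. Its first copy lay 98 to 146 bases before the start, and in all 9 it began 60 bases before the CCAAT box. A CCAAT box was found on either strand in 9 of 10, against 33.8% of all promoters and 48.7% of the other members. The GC box was found in 7 of 10, against 32.7% and 44.4%. The E box was found only in the promoter of Zfp933 among the 10, against 6.0% and 4.3%. The motifs were picked after the promoters had been aligned, and since 9 of them are copies they count as 1 ancestral sequence. A match describes letters and not a bound site.

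The measurements limit what can be said. The deposited values are FPKM, fragments scaled to exon length and to the mapped reads of the library, with 1 column per group. Whole reads could be recovered from them, which split 7 columns into a library A (the larger) and a library B and left 1 library in the remaining 2, whose headers are 4-cell-FK866 and 4-cell-FK866-NMN. The 16 libraries held 3169677 to 10003481 reads. Levels below are FPKM per library, and fold changes are log2 ratios of (FPKM per library + 1) between columns, over genes at 1 FPKM or more in either column. "Higher" and "lower" without a value mean more than 2-fold on that scale. For comparisons between columns of 2 libraries, the number of members for which both libraries of one column lay beyond both of the other is also given. A test was added after the data had been seen, limma on log2(FPKM + 1) of the 16 libraries with Benjamini-Hochberg adjustment over all genes, and a member "passed" where its adjusted p was under 0.05. Its p-values measure the spread between these libraries, which may be technical, and a column of 1 library is assumed to vary like the others. A fold for a member with 0 reads in every library of a column is given as a lower bound, with 3 reads per library as the floor. Fingers and promoters of neighbouring members are near copies, and how reads that fit several members were assigned is not given in the sources used here, so single values within a cluster are less certain than sums.

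The headers of 5 columns stand against other evidence on which group the column holds. Each column was set against gene lists that accompany the study, using the listed genes among the rows at hand without Zfp-named genes. The 83 values of the 4-cell control were all found in the column headed late-2-cell-TSA, 47 of them above 0 and the rest equal at 0. Those of 4-cell FK866 were found in the column headed late-2-cell-Sirt1, all 83 above 0. Those of 4-cell FK866+NMN were found in the column headed 4-cell-con, 79 above 0. All 1171 such genes listed for TSA had the listed direction in the column headed 4-cell-FK866. In the column headed TSA 523 did, and in the early 2-cell column 1065. For Sirt1 knockdown the match was less complete, 743 of 791 genes in the column headed 4-cell-FK866-NMN, against 422 in the column headed Sirt1, but the late 2-cell FK866 column (676) and the early 2-cell column (660) also matched most of that list. The transcript targeted in the knockdown, Sirt1, was at 86.6 and 66.2 FPKM in the late 2-cell control libraries, at 32.4 and 73.1 in the libraries headed Sirt1, at 11.3 in the column headed 4-cell-FK866-NMN and at 7.61 in the column headed 4-cell-FK866, near the 9.84 of the early 2-cell column. Embryonic 2-cell markers (the Zscan4, Dux and Usp17l lists) summed to 329 FPKM in the late 2-cell control, to 7.40 in the column headed TSA and to 95.9 in the column headed 4-cell-FK866. Results that involve these 5 columns are therefore given by header and then by match, the group whose listed genes pointed to the column. The early 2-cell column and the late 2-cell control, FK866 and FK866+NMN columns do not depend on this.

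Across the 9 columns, 104 to 141 members were at 1 FPKM or more in a column, 44 members were so in every column and 29 in none. The highest on average were Zfp296 (134 FPKM), Zfp655 (79.0), Zfp936 (66.4), Zfp951 (58.6) and Zfp775 (38.8). Zfp296, a zinc finger protein of pluripotent and germ cells, had 66.7 and 75.6 FPKM in the early 2-cell libraries and 153 and 111 in the late 2-cell control. Zfp936, a KRAB-type member of a chromosome 7 cluster, had 39.1 and 32.5 at the early 2-cell stage and 116 and 82.1 in the late 2-cell control. Zfp951, KRAB-type as well, went the other way, with 90.1 and 124 against 32.7 and 19.6. None of these pairs of libraries overlapped between the stages.

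**Figure D1:**
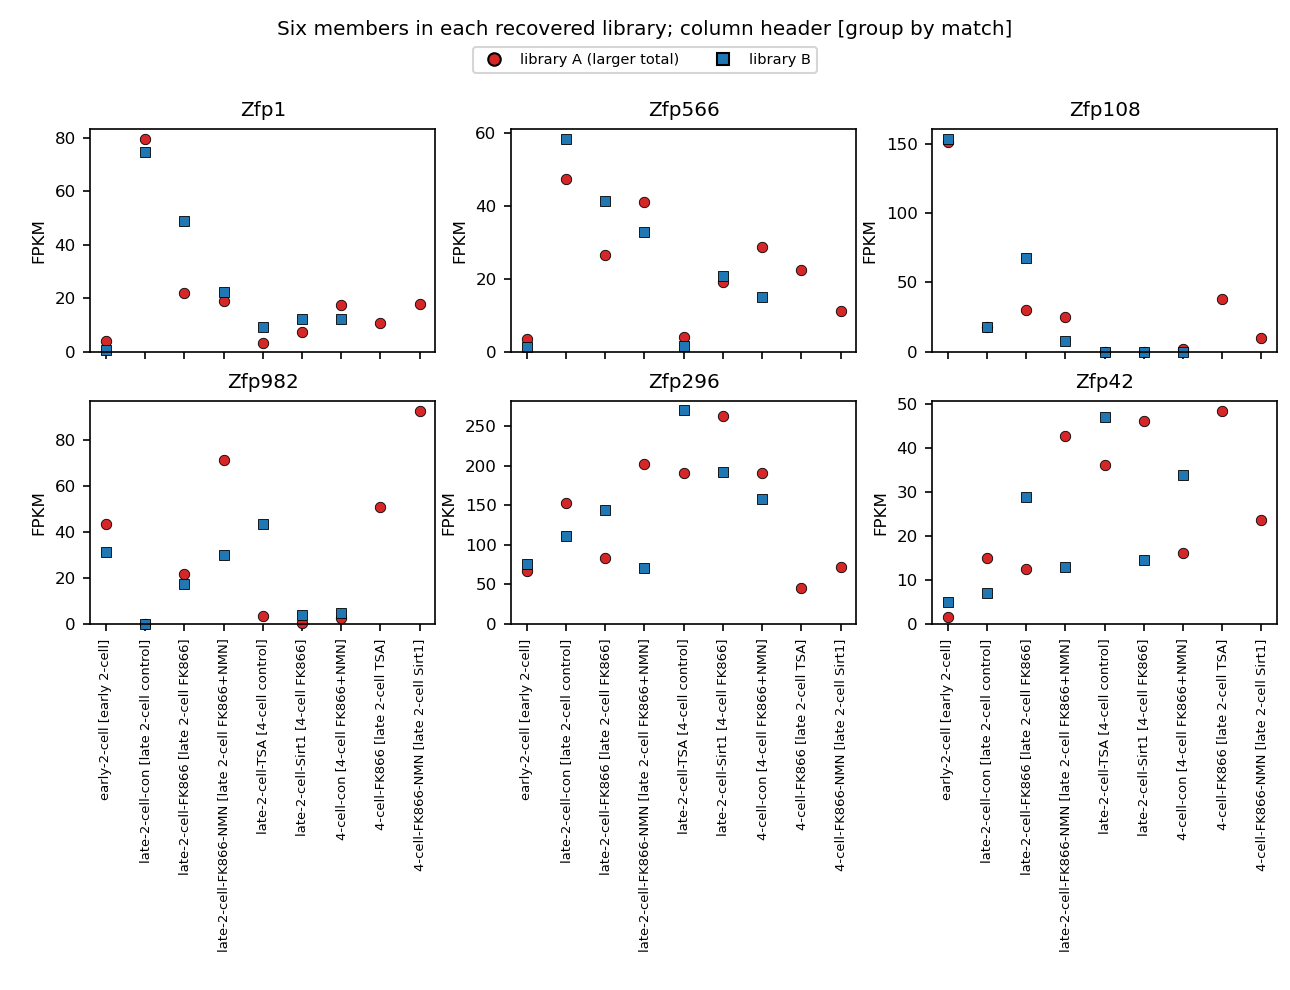
FPKM (linear axis) of Zfp1, Zfp566, Zfp108, Zfp982, Zfp296 and Zfp42 in each recovered library (circles library A, squares library B) of the 9 columns, named by header with the group by match in brackets. Zfp1 and Zfp566 sit highest in the late 2-cell control libraries, Zfp108 sits highest in the early 2-cell libraries at 151 and 153, and Zfp982 is at 0 in both late 2-cell control libraries.

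The first question was how these genes differ between the early and the late 2-cell stage, when minor activation ends and major activation begins. Of 231 members, 172 reached 1 FPKM in either column, and 46 (26.7%) were higher and 52 (30.2%) lower in the late 2-cell control, with a median of 0.03. Among all genes tested, 32.2% were higher and 31.7% lower. With both libraries beyond, 36 members were higher and 47 lower of 168 with separated libraries, against 24.6% and 27.0% of all genes. The family as a whole was thus near the background. By kind, KRAB-type members had 25 higher and 35 lower of 98 (median -0.17), and members without a KRAB match had 21 higher and 16 lower of 71 (median 0.30). Both libraries lay beyond for 19 and 33 of the first kind and for 17 and 13 of the second. The chromosome 4 run had 4 higher and 5 lower of 18 (median 0.10), 2 and 5 with both libraries beyond. By limma, 11 members were higher and 20 lower of 168 at an adjusted p under 0.05, against 10.7% and 10.4% of all genes. Of the 20 lower ones 15 were KRAB-type, as were 97 of the 168 tested.

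Members that were higher at the late 2-cell stage included both kinds. Zfp1 (KRAB-type) had 4.00 and 0.739 FPKM in the early 2-cell libraries and 79.4 and 74.7 in the late 2-cell control, a log2 fold change of 4.53. Zfp566, a KRAB-type member on chromosome 7, had 3.49 and 1.25 against 47.3 and 58.4 (4.00). Zfp775, without a KRAB match, had 2.01 and 2.69 against 62.8 and 29.5 (3.82). In each of the 3 the libraries of the stages lay far apart, and each passed limma (adjusted p 0.000822, 0.000561 and 0.0018). Zfp637 had no reads in either early library and 14.3 and 17.0 FPKM in the late ones, at least 68.3-fold higher. Zfp239 had none in the early libraries and 13.8 and 2.92 in the late ones, at least 62.1-fold higher. Zfp599 (4.50), Zfp949 (3.74), Zfp639 (3.41), Zfp954 (3.33) and Zfp791 (3.30) completed the 10 members that were highest against the early stage.

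All 10 members that were lowest against the early stage were KRAB-type, as were 98 of the 172 members tested. Zfp108, in the chromosome 7 cluster from Zfp180 to Zfp526, had 151 and 153 FPKM in the early 2-cell libraries and 18.1 and 17.6 in the late 2-cell control (-3.02). Zfp982 of the chromosome 4 run had 43.4 and 31.1 and then no reads, at least 93.9-fold lower. Zfp383 had 16.9 and 21.4 and then no reads, at least 104-fold lower. Zfp109 had 19.3 and 13.5 and then no reads, at least 81.5-fold lower. For the last 3 both late libraries were empty. Zfp873 had 19.8 and 39.4 against 0.530 and 0.604 (-4.29). Zfp931, Zfp60 and Zfp984 differed by -3.07 to -2.70, and Zfp963 and Zfp938, with no reads in the late libraries, were at least 28.7-fold and 21.1-fold lower. Of the 10, limma passed Zfp108 (adjusted p 0.0129), Zfp982 (0.00445), Zfp383 (0.00106), Zfp109, Zfp873, Zfp931 and Zfp60. In the Zfp180 to Zfp526 cluster, 7 of 12 tested members were lower and 1 higher, with a median of -1.21.

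Members with a known role are given singly, whichever way they went. Zfp42 (Rex1), a marker of naive pluripotency, had 1.51 and 4.92 FPKM against 14.8 and 7.02 (1.50). Zfp281, a regulator of the pluripotency network, had 3.23 and 4.54 against 24.4 and 24.5 (2.38). Zfp217, a component of repressor complexes, had 2.63 and 2.81 against 29.5 and 23.3 (2.88). Zfp143, a promoter and chromatin looping factor, had 5.50 and 3.09 against 14.6 and 47.6 (2.60). In all 4 both late libraries were above both early ones, and Zfp217 alone of them passed limma (adjusted p 0.006). Zfp462 stayed under 1 FPKM in all 4 libraries. Among KRAB repressors with a known target, Zfp568, which silences a placental transcript of Igf2, differed by 1.75 (1.50 and 1.14 against 9.59 and 4.02). Zfp809, which binds the primer site of murine leukemia viruses, differed by 1.78 (7.91 and 6.91 against 30.1 and 25.9). Zfp932, a repressor of endogenous retroviruses, had 42.7 and 34.8 against 31.5 and 24.0, lower by less than 2-fold with libraries that did not overlap. Of RNA-binding members, Zfp106 had 8.52 and 7.85 against 12.2 and 15.0, and Zfp638 had 5.83 and 5.73 against 3.87 and 3.22, both under 2-fold, while Zfp326 stayed near 0. Zfp36 (tristetraprolin), which promotes decay of AU-rich mRNAs, could not be compared, since the late control libraries held 0.0442 and 13.6 FPKM.

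The partners of the KRAB domain did not differ in one direction. Of 17 listed corepressor genes 14 were in the table, and 3 of these were higher and 5 lower in the late 2-cell control. Among all genes 32.2% were higher and 31.7% lower. Trim28 itself had 3.50 and 8.70 FPKM in the early libraries and 25.4 and 18.7 in the late ones (1.70). Cbx3, an HP1 protein, differed by 4.09 and the deacetylase Hdac1 by 3.22. The methyltransferases Setdb1 (-1.42), Suv39h2 (-1.34) and Dnmt3b (-1.43), the SETDB1 partner Atf7ip (-1.06) and the DNA methylation cofactor Dnmt3l (-1.21) were lower. For each of these 8 genes the libraries of the stages did not overlap.

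The next comparison was FK866 against control at the late 2-cell stage, which asks what changes when NAD+ synthesis is blocked. Of 165 members tested, 44 (26.7%) were higher and 32 (19.4%) lower with FK866, with a median of 0.13. Among all genes 18.1% were higher and 20.0% lower. The library criterion was met by 32 higher and 18 lower members of 163, against 9.44% and 10.9% of all genes. By limma no member passed in either direction of 162, against 0.611% and 0.305% of all genes. At an unadjusted limma p under 0.05 there were 14 higher and 5 lower members of 162, against 405 and 492 of 8514 genes. The lowest adjusted p values by limma were those of Zfp982 (0.0908) and Zfp978 (0.129). The counts that follow are of values past 2-fold and not of members that passed. Of the 44 higher values 32 were of KRAB-type members. Of 95 KRAB-type members 32 (33.7%) were higher and 16 lower, with a median of 0.35 and library-pair medians from 0.32 to 0.57, and 22 and 8 held with both libraries beyond. Of 67 members without a KRAB match 10 (14.9%) were higher and 16 lower, with a median of -0.10, and 9 and 10 held. Outside the chromosome 4 run, KRAB-type members still had 23 higher and 15 lower of 77 (median 0.25).

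Between single libraries the contrast was less sharp for the members without a KRAB match, with 10 to 17 higher, 14 to 20 lower and medians from -0.31 to 0.27 over the 4 library pairs, while KRAB-type members had 26 to 34 higher and 19 to 22 lower. Levels gave the following picture. The median KRAB-type member had 0.530 and 0.946 FPKM in the control libraries and 1.97 and 1.89 in the FK866 libraries. The median member without a KRAB match had 1.36 and 2.30 against 1.44 and 1.62. So the libraries were apart for the first kind and overlapped for the second. The summed level hardly differed, 769 FPKM in the control and 847 with FK866 for KRAB-type members, because a few high members carry most of it. The number of KRAB-type members at 0 was 38 in the control column and 25 in the FK866 column. Of 15356 genes with an exon length, 9740 were above 0 in the control and 10157 with FK866. The FK866 libraries were also deeper, with 8963343 and 8129784 reads against 6523488 and 4164896 in the control. The part of depth in the number of members at 0 was not tested. These figures describe this list beside all genes, members of a cluster are not independent of each other, and no test of the difference between the kinds was made.

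**Figure D2:**
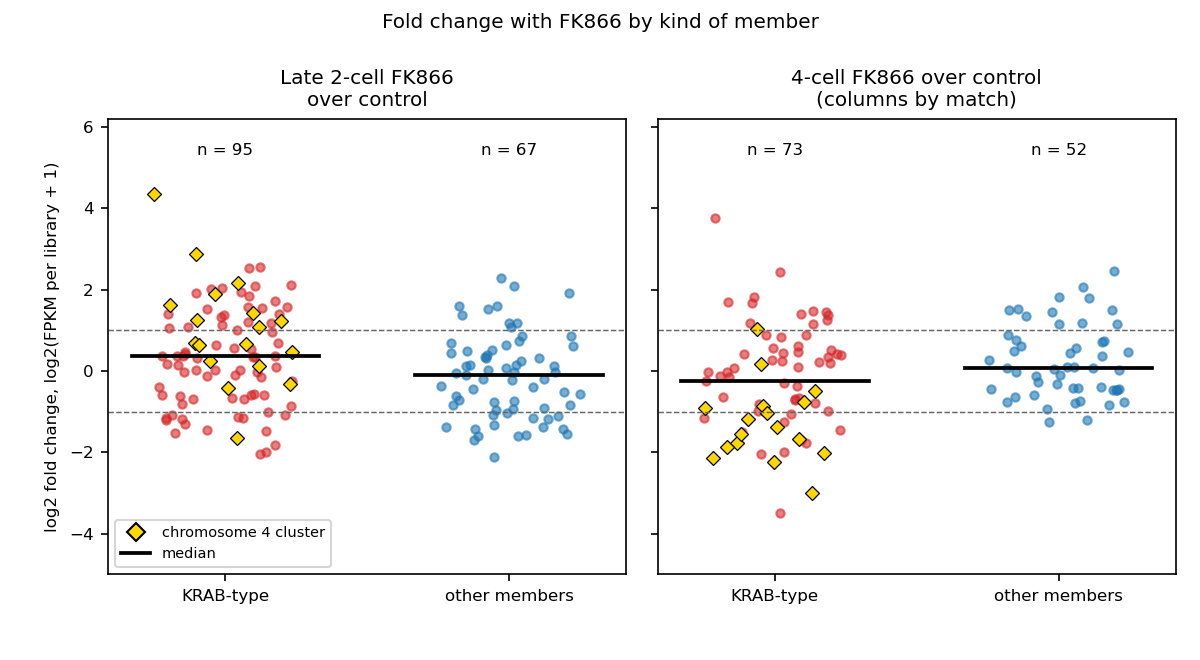
Log2 fold change (y axis, log2 of FPKM per library + 1) of FK866 over control at the late 2-cell stage and, by match, at the 4-cell stage, for KRAB-type members and for members without a KRAB match. Points are members tested, diamonds the chromosome 4 run, black bars medians and dashed lines 2-fold. At the late 2-cell stage the KRAB-type median is 0.35 and the other -0.10, and at the 4-cell stage they are -0.24 and 0.07 by match, while by header they would be 0.80 and -0.07.

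The member that differed most with FK866 was Zfp982, a chromosome 4 KRAB-type gene studied in embryonic stem cells. It had no reads in either control library and 21.7 and 17.3 FPKM in the FK866 libraries, at least 49.1-fold higher. Zfp978, close to it, had no reads in the control and 6.50 and 6.21 with FK866, at least 13.9-fold higher. Zfp788 had none in the control and 9.40 and 0.368 with FK866, at least 35.9-fold higher by the mean of libraries that differed widely. Zfp873 had 0.530 and 0.604 against 8.53 and 7.55 (2.53). Zfp526 and Zfp426 also had no reads in the control, and 0.660 and 7.06, and 4.70 and 1.89 FPKM with FK866, at least 22.1-fold and 27.3-fold higher. Zfp264 (2.25), Zfp992 (2.17), Zfp703 (2.09) and Zfp846 (2.08) completed the 10. Of these 10, 7 were KRAB-type. Zfp526 and the transcriptional repressor Zfp703 had no KRAB match, and no reading frame was found for Zfp264.

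Members that were lower with FK866 were of both kinds and mostly low. Zfp583 had 9.45 and 11.0 FPKM in the control and 3.30 and 0.117 with FK866 (-2.05). Zfp868 had 11.8 and 11.8 against 1.31 and 5.91 (-1.47). Zfp974 had 6.65 and 0.0958 in the control and no reads with FK866, at least 72.0-fold lower, although 1 control library carried nearly all of it. Zfp964 had 1.84 and 4.20 and then no reads, at least 65.2-fold lower. Zfp933 had 2.33 and 1.97 and then no reads, at least 26.1-fold lower. It was the only member of the chromosome 4 run that was lower. Its promoter is also the one that differs among the 10 compared. Of the other 9, Zfp987, Zfp985 and Zfp534 were not higher either. A link between promoter and direction was not tested. Zfp668, Zfp956, Zfp398 and Zfp292 differed by -1.61 to -1.39, and Zfp329, with no reads with FK866, was at least 32.1-fold lower. Zfp1 had a mean of 35.5 FPKM with FK866 against 77.1 in the control, and Zfp637 had 8.70 and 4.65 against 14.3 and 17.0.

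By position, the 3 clusters with most members are described, the chromosome 4 run and 2 clusters of chromosome 7. In the chromosome 4 run 9 of 18 members were higher with FK866, namely Zfp980, Zfp600, Zfp992, Zfp981, Zfp988, Zfp978, Zfp982, Zfp979 and Zfp984 (1.08 to 2.17 for the 7 with reads in the control), and 1 was lower. Of the 9, 5 had both libraries above, and none passed limma. At an unadjusted p under 0.05 limma had 3 of the 18 members higher and 1 lower, against 405 and 492 of 8514 genes. The summed level of the run was 59.7 and 60.6 FPKM in the control libraries and 192 and 87.0 with FK866, so the FK866 libraries lay above but differed from each other. The median of the run was 0.88. With FK866 library A alone it was 1.70 and 1.55 against the 2 control libraries, with 11 and 12 members higher, and with library B alone it was 0.60 and -0.08, with 5 and 4 higher, so the size of this difference rested on library A. In the chromosome 7 cluster from Zfp84 to Zfp146 (chr7:29768552-30169750), 5 of 11 tested were higher and none lower, all 5 with both libraries above: Zfp84 (at least 19.3-fold), Zfp27 (1.38), Zfp383, Zfp74 (1.95) and Zfp260 (1.07). Zfp383 had no reads in the control and 2.43 and 3.68 FPKM with FK866, at least 16.6-fold higher. Zfp74 had 0 and 1.58 against 6.34 and 5.51. In the chromosome 7 cluster from Zfp180 to Zfp526 (chr7:24081924-25227507), 5 of 10 were higher, all with both libraries above. They were Zfp111, Zfp108 and Zfp93 (1.06 to 1.55), Zfp61 (at least 17.1-fold) and Zfp526 as given above. Zfp180 was lower with overlapping libraries. Zfp108 had 18.1 and 17.6 FPKM in the control and 30.3 and 67.9 with FK866 (1.41). It did not come near the 151 and 153 FPKM of the early 2-cell libraries.

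Several of these members can be set beside their early 2-cell level. Zfp982 had a mean of 37.2 FPKM at the early 2-cell stage, 0 in the late control and 19.5 with FK866. Zfp873 had 29.6, 0.567 and 8.04 FPKM. Zfp383 had 19.1, 0 and 3.06 FPKM. The early over late and the FK866 over control comparisons share the late control column, so a low value there raises both, and no overlap between them is given. Oocyte markers, 5 genes of which Mos was listed at 0 with FK866, summed to 349 FPKM at the early stage, 147 in the late control and 108 with FK866. The 2-cell markers summed to 329 FPKM in the late control and 277 with FK866. Neither sum was higher with FK866, but single markers went both ways, Zp3 from 54.9 to 15.6 FPKM, Zar1 from 22.6 to 29.5, Nlrp5 from 26.0 to 36.0 and Duxf3 from 0.589 to 2.12. The part of these markers in the results on Zfp genes was not tested.

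Trim28 had 25.4 and 18.7 FPKM in the control and 13.8 and 5.09 with FK866 (-1.14), the only corepressor gene of 14 that was lower. Cbx3 (1.25), the methyltransferase Ehmt1 (1.11), Dnmt3b (1.71) and Dnmt3l (1.21) were higher. For all 5 the libraries of control and FK866 did not overlap. Among all genes 18.1% were higher and 20.0% lower, and limma results of the corepressor genes are not given here.

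The rescue comparison asks whether NMN brings values back. Of 155 members tested, 27 (17.4%) were higher and 55 (35.5%) lower with FK866+NMN than with FK866, with a median of -0.51. All genes had 18.9% higher and 33.3% lower, so members were close to the background, and the median of all genes was itself -0.24. With both libraries beyond, 8 members were higher and 38 lower of 151, against 5.67% and 20.6%. KRAB-type members had 16 higher and 37 lower of 91, and the others 10 and 18 of 60, with both libraries beyond for 4 and 24, and for 4 and 14. By limma no member was higher and 2 were lower of 150, against 0.518% and 3.71% of all genes. The 2 were Zfp637 (limma adjusted p 0.0373) and Zfp324 (0.0225). At an unadjusted limma p under 0.05 there were 4 higher and 29 lower members of 150, against 290 and 1242 of 8106 genes. Library A of FK866+NMN weighed on this: 71 and 84 members were lower when it was set against the FK866 libraries singly, and 66 against either one when library B was used. The FK866+NMN libraries were sparse: 65 members in library A and 99 in library B reached 1 FPKM of 226, and of all genes 27.8% and 36.3% did.

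Single members went in both directions. Zfp345 (KRAB-type, chromosome 2) had 5.79 and 12.7 FPKM with FK866 and no reads with FK866+NMN, at least 55.2-fold lower. Zfp637 had 8.70 and 4.65 and then no reads, at least 37.4-fold lower. Zfp36 (-3.24), Zfp599 (-3.23) and Zfp260 (at least 77.8-fold) were lower as well. Zfp109 had 0.114 and 0 with FK866 and 32.2 and 2.36 with NMN (4.11). Zfp329, with no reads under FK866, had 0.298 and 7.66 with NMN, at least 76.2-fold higher. Zfp473 (1.82), Zfp94 (1.63) and Zfp423 (1.42), the last a cofactor in neural and fat cell differentiation, were higher too. In the chromosome 4 run 4 members were higher and 3 lower of 17 (median -0.34), and 1 and 3 of these had both libraries beyond. Zfp978 (-2.15), Zfp600 (-1.92) and Zfp992 (-1.94) were lower with NMN with both libraries below, and Zfp982, Zfp990, Zfp985 and Zfp984 were higher. Zfp982 had 71.4 and 29.9 FPKM, above both FK866 libraries (1.33). In the Zfp84 to Zfp146 cluster 5 of 11 were lower with NMN and none higher. Zfp84 had 3.25 and 2.27 with FK866 and 0 and 0.0454 with NMN, while Zfp74 had 6.34 and 5.51 against 14.8 and 5.94. Among corepressors Dnmt1 (1.24) was higher with NMN and Ehmt1 (-1.73) was lower, while Dnmt3b had a mean of 4.95 FPKM with FK866 and no reads with NMN. Setdb1 (1.18) was past 2-fold through library A alone, with 53.3 and 7.39 FPKM against 9.83 and 15.8.

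**Figure D3:**
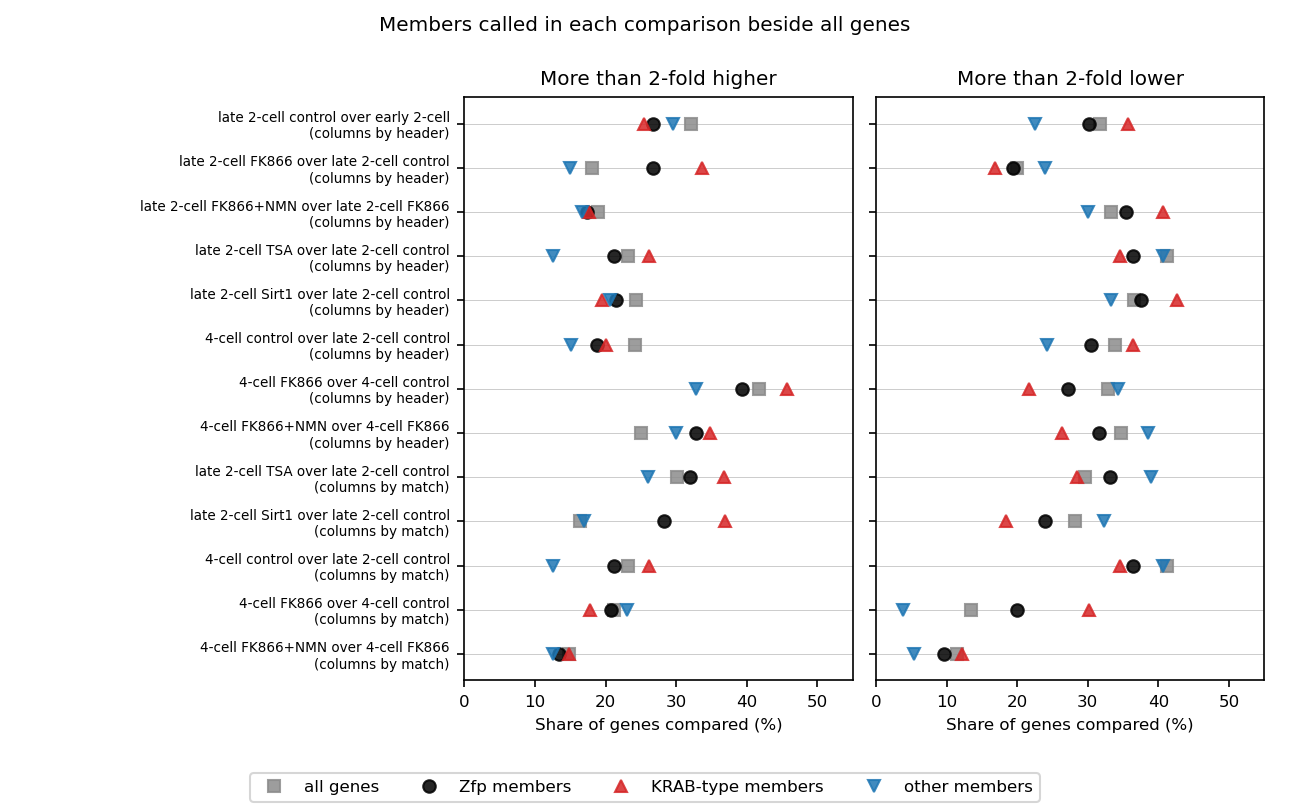
Share of the genes tested, in percent, that were more than 2-fold higher (left) or lower (right) in each comparison, by header and, for 5 comparisons, by match. Squares are all genes, circles Zfp members, and triangles the KRAB-type and other members. The widest gap between members and all genes on the higher side is for Sirt1 knockdown by match, 28.3% against 16.4%.

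For the 4-cell stage the readings by header and by match diverge. By header, 4-cell control over late 2-cell control gave 29 members higher and 47 lower of 154, with a median of -0.38, against 24.2% and 33.8% of all genes. Both libraries lay beyond for 23 and 34, against 19.8% and 23.2%, and by limma 2 members were higher and 4 lower of 150, against 4.42% and 6.55%. KRAB-type members had 17 higher and 31 lower of 85 (median -0.42), the others 10 and 16 of 66 (median -0.36), and the chromosome 4 run 2 and 4 of 17 (median 0.04). Centred on the median of all genes (-0.21), the counts were 36 and 38. Zfp978 (at least 10.1-fold), Zfp982 (at least 9.27-fold), Zfp800, Zfp772 and Zfp422 (at least 22.4-fold) were the 5 highest, and Zfp108, Zfp951, Zfp68, Zfp781 and Zfp69 the 5 lowest.

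By match, the 4-cell control gave 32 members higher and 55 lower of 151 (median -0.41), against 23.2% and 41.3% of all genes. Both libraries lay beyond for 22 higher and 38 lower members of 149, against 17.8% and 28.0%. By limma 5 were higher and 13 lower of 148, against 6.35% and 11.9%. The median of all genes was -0.44, and centred on it 46 members were higher and 35 lower. KRAB-type members had 22 higher and 29 lower of 84, and the others 8 and 26 of 64, with both libraries beyond for 16 and 20, and for 5 and 18. Zfp800 had 1.90 and 1.14 FPKM at the late 2-cell stage and 24.1 and 16.5 in the 4-cell control (3.08). Zfp108 had 18.1 and 17.6 against 0.0536 and 0 (-4.20), and Zfp566 had 47.3 and 58.4 against 4.14 and 1.68 (-3.78). Zfp1 had 79.4 and 74.7 against 3.22 and 9.39 (-3.42). Zfp513 (-3.69), the regulator Zfp217 (-3.26), Zfp428 (2.94) and Zfp264 (2.67) followed. Zfp42 had 14.8 and 7.02 against 36.1 and 47.0 FPKM.

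In the chromosome 4 run the readings differed, with the 2 higher and 4 lower by header given above. By match, 9 of its 18 members were higher in the 4-cell control and none lower, all 9 with both libraries above: Zfp982 (no reads against 3.43 and 43.4 FPKM, at least 59.1-fold), Zfp984 (2.54), Zfp600 (2.42), Zfp980 (2.28), Zfp985 (1.89), Zfp979 (1.59), Zfp992 (1.51), Zfp978 (at least 3.20-fold) and Zfp989 (1.02). Zfp982 alone of the run passed limma (adjusted p 0.0243). Zfp985 had 5.45 and 5.60 in the late 2-cell control and 26.6 and 20.0 in the 4-cell control. Zfp600 had 0.994 and 2.72 against 12.0 and 16.6. The sum over the run was 59.7 and 60.6 FPKM in the late 2-cell libraries and 166 and 208 in the 4-cell libraries. Its median was 0.93, or 0.83 with genes at 0 set to their bound. Library pairs ran from 1.03 to 1.56, each over the members at 1 FPKM or more in either of its libraries. Those members need not be the same as the ones behind the median of 0.93. Outside the run, KRAB-type members had 13 higher and 29 lower of 66 (median -0.67).

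**Figure D4:**
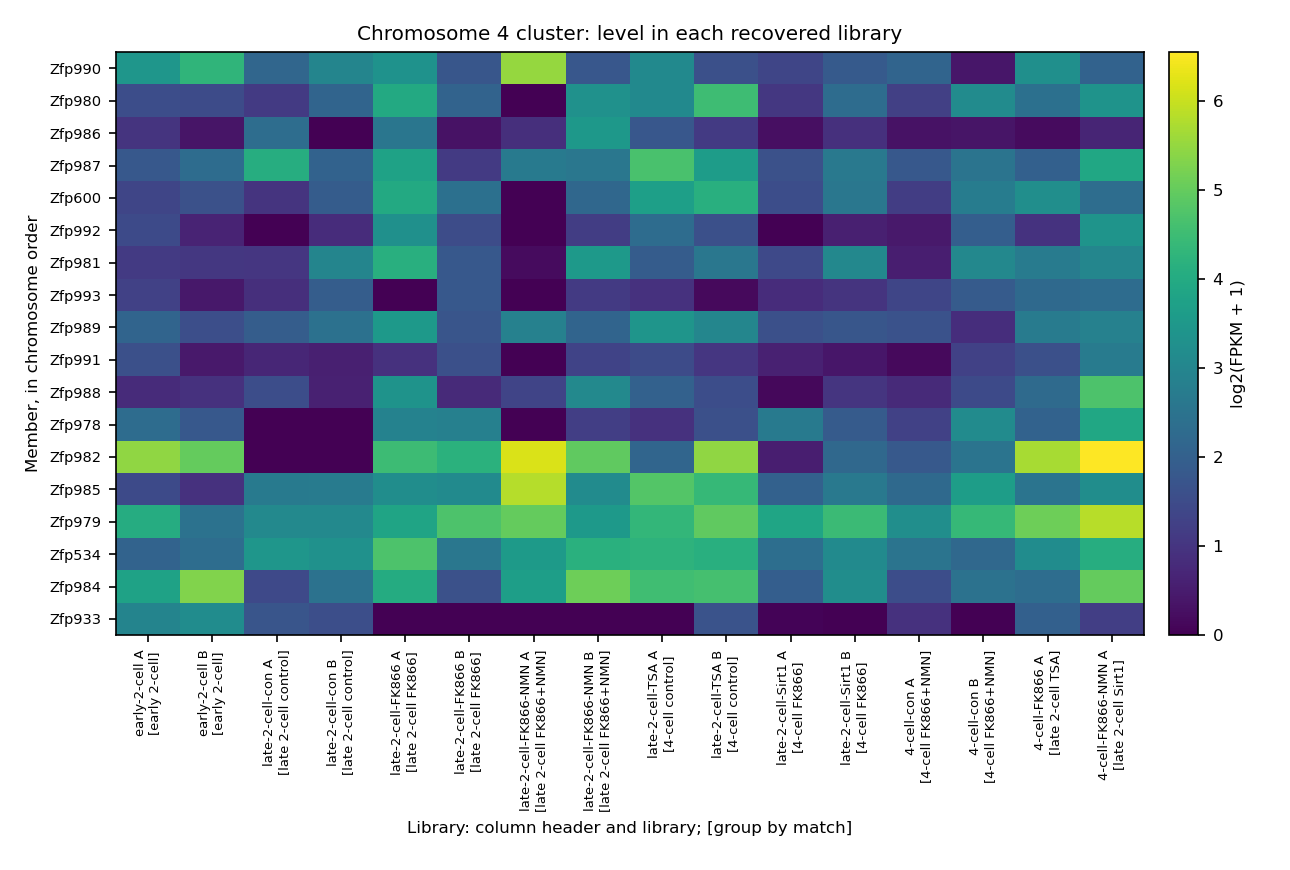
Level of the 18 chromosome 4 members (rows, in chromosome order) in each recovered library (columns, by header, with the group by match in brackets), as colour on a log2(FPKM + 1) scale. Zfp982 and Zfp978 are at 0 in both late 2-cell control libraries, and most rows are brighter in the libraries headed late-2-cell-TSA (4-cell control by match) than in those headed late-2-cell-Sirt1 (4-cell FK866 by match).

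By header, 4-cell FK866 over 4-cell control gave 65 members higher and 45 lower of 165 (median 0.41), against 41.8% and 32.9% of all genes, and 48 and 53 when centred on the median of all genes (0.42). The FK866 column held 1 library here. By limma 21 members were higher and 15 lower of 159, against 18.9% and 10.9%. KRAB-type members had 42 higher and 20 lower of 92 (median 0.80), and the others 23 and 24 of 70 (median -0.07). The chromosome 4 run had 7 higher and none lower of 17 (median 0.79), none of them passing limma, and outside it KRAB-type members had 35 higher and 20 lower of 75 (median 0.84). Zfp951 (5.22), Zfp108 (4.18), Zfp541 (4.04), Zfp68 (3.58) and Zfp703 (3.51) were highest, and Zfp330 (at least 173-fold), Zfp961 (at least 131-fold), Zfp777 (-4.12), Zfp574 (at least 114-fold) and Zfp599 (-3.74) lowest.

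By match, 4-cell FK866 gave 27 members higher (20.8%) and 26 lower (20.0%) of 130, with a median of -0.03, against 21.2% and 13.4% of all genes. The libraries did not overlap for 18 higher and 16 lower members of 127, against 12.7% and 6.99%. By limma no member passed of 126, against 0.186% and 0.0286% of all genes. At an unadjusted limma p under 0.05 there were 5 higher and 7 lower members of 126, against 439 and 203 of 6994 genes. The lowest adjusted p by limma was that of Zfp566 (0.115). The median of KRAB-type members was below that of the others by match and above it by header, and the difference between the kinds was not tested. Of 73 KRAB-type members 13 were higher and 22 (30.1%) lower (median -0.24), and of 52 without a KRAB match 12 were higher and 2 (3.85%) lower (median 0.07). The median of all genes was 0.10, so the second of these medians lay just below it. With both libraries beyond, the KRAB-type counts were 8 and 14 and the others 9 and 1. Over the 4 library pairs KRAB-type medians ran from -0.56 to -0.40, with 22 to 29 lower, and the others from -0.21 to 0.49, with 7 to 10 lower. Each pair took only members at 1 FPKM or more in either of its libraries, 65 to 68 of the KRAB-type. The pair medians therefore do not cover the same members as the median of -0.24. Much of the KRAB-type difference was the chromosome 4 run: outside it, KRAB-type members had 12 higher and 11 lower of 56 (median 0.15).

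Within the run 11 of 17 tested members were lower with FK866 at the 4-cell stage by match, 9 of them with both libraries below, and 1 was higher, while by header 7 were higher and none lower. None of the 17 passed limma by match, and 3 were lower at an unadjusted p under 0.05, against 203 of 6994 genes. Zfp985 had 26.6 and 20.0 FPKM in the control and 3.06 and 5.27 with FK866 (-2.23). Zfp980 had 7.57 and 21.9 against 1.07 and 4.02 (-2.15). Zfp987 had 24.6 and 11.3 against 2.07 and 5.29 (-2.02). These 3 were apart in every library, and so were Zfp984 (-1.87), Zfp600 (-1.77), Zfp992 (-1.68), Zfp989 (-1.55), Zfp534 (-1.39) and Zfp988 (-1.17). Zfp982 had 3.43 and 43.4 against 0.470 and 3.60 FPKM (-3.01), where library A of the control lay within the FK866 libraries, and Zfp933 (-1.03) overlapped too. Zfp978 was the exception, with 0.907 and 2.02 against 5.44 and 2.70 (1.04). The summed level was 166 and 208 FPKM in the control and 41.4 and 78.8 with FK866, and the median was -1.39, from -1.85 to -1.01 over library pairs. The late 2-cell control libraries, at 59.7 and 60.6, lay between the 4-cell FK866 libraries. The 4-cell comparisons by match share the control column, so that its high level enters both.

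Elsewhere by match, Zfp819, a KRAB-type gene of chromosome 7 studied in pluripotent cells, had no reads in the 4-cell control and 22.3 and 2.56 FPKM with FK866, at least 68.4-fold higher. Zfp566 had 4.14 and 1.68 against 19.3 and 20.8 (2.43), both FK866 libraries still below the late 2-cell control. Zfp341 (2.46), Zfp783 (1.97) and Zfp715 (1.82) were also higher. Zfp69 had 18.1 and 2.48 FPKM in the control and no reads with FK866, at least 45.9-fold lower. Zfp264 had 3.92 and 7.90 and then no reads, at least 26.8-fold lower. Among corepressors by match, Ehmt1 (1.19) and Dnmt3b (2.18) were higher and none lower.

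The addition of NMN at the 4-cell stage gave, by header, 55 members higher and 53 lower of 168 (median 0.18), against 25.0% and 34.7% of all genes, between columns of 1 library each. The median of all genes was -0.29. By limma 4 were higher and 7 lower of 162, against 3.32% and 7.39%. KRAB-type members had 33 higher and 25 lower of 95 (median 0.31), the others 21 and 27 of 70 (median -0.18), and the chromosome 4 run 6 and 1 of 17 (median 0.85). Zfp599 (5.08), Zfp961 (at least 181-fold), Zfp574 (at least 167-fold), Zfp433 (at least 78.6-fold) and Zfp617 (at least 77.1-fold) were highest, and Zfp715 (-4.23), Zfp105 (-4.18), Zfp637 (-3.45), Zfp768 (at least 57.0-fold) and Zfp771 (at least 39.3-fold) lowest. By match it gave 18 higher and 13 lower of 134 (median 0.16), against 14.8% and 11.5%. Both libraries lay beyond for 11 higher and 6 lower of 131, against 9.58% and 5.18%. By limma no member passed of 130, against 0.219% and 0.0137%. At an unadjusted limma p under 0.05 there were 5 higher and no lower members of 130, against 258 and 138 of 7316 genes. KRAB-type members had 11 higher and 9 lower of 74, and the others 7 and 3 of 56, with both libraries beyond for 5 and 4, and for 6 and 2. Zfp422 (at least 21.2-fold), Zfp408 (1.95), Zfp113 (1.85), Zfp956 (1.84) and Zfp772 (1.76) were higher, and Zfp511 (-2.19), Zfp868 (-1.92), Zfp341 (-1.80), Zfp84 (-1.53) and Zfp951 (-1.42) lower. Zfp113 had 1.35 and 1.49 FPKM with FK866 and 8.03 and 7.40 with NMN. Of the chromosome 4 run 15 members were tested, and Zfp992 alone was past 2-fold (1.08, with overlapping libraries). Zfp985 had 3.75 and 11.6 FPKM with NMN and Zfp987 2.46 and 4.75, in both cases below the 4-cell control libraries.

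TSA and Sirt1 knockdown were the 2 treatments aimed at deacetylases. By header, TSA over late 2-cell control is the same pair of columns as 4-cell over late 2-cell control by match, with the 32 members higher and 55 lower given there, against 23.2% and 41.3% of all genes. By match, TSA gave 56 members higher and 58 lower of 175 (median 0.18), against 30.1% and 29.7%. By limma 13 were higher and 4 lower of 169, against 8.61% and 3.92%. KRAB-type members had 35 higher and 27 lower of 95 (median 0.36), the others 20 and 30 of 77 (median -0.40). Zfp982 had 50.9 FPKM in the single TSA library and no reads in the control, at least 128-fold higher, and passed limma (adjusted p 0.0118). Zfp772 (24.1 against 0 and 0.0865 FPKM, 4.59), Zfp768 (at least 42.0-fold), Zfp819 (29.5 against 0 and 5.65 FPKM) and Zfp105 (2.94) came next. Zfp574 (at least 224-fold), Zfp599 (-4.61), Zfp961 (at least 149.7-fold), Zfp433 (at least 51.1-fold) and Zfp617 (at least 55.3-fold) were lowest, with Zfp599 at 0.119 FPKM against 42.3 and 10.5. In the chromosome 4 run 5 were higher and 2 lower of 17 (median 0.64), and outside it KRAB-type members had 30 higher and 25 lower of 78 (median 0.20). In this column the oocyte markers summed to 204 FPKM against 147 in the control, the 2-cell markers to 95.9 against 329, and the 5 listed genes of later cleavage to 11.0 against 60.2. Their part in these differences was not tested.

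By header, Sirt1 knockdown gave 32 members higher and 56 lower of 149 (median -0.51), against 24.3% and 36.6%, and 34 and 37 when centred on the median of all genes (-0.28). Both libraries lay beyond for 20 and 39, against 18.7% and 25.1%, and by limma 3 were higher and 9 lower of 145, against 5.14% and 8.66%. KRAB-type members had 16 higher and 35 lower of 82, and the others 13 and 21 of 63. Zfp61 (at least 46.4-fold), Zfp428, Zfp873, Zfp978 (at least 8.87-fold) and Zfp36 were highest. Zfp61 had 12.3 and 0.0713 FPKM in the libraries headed Sirt1, so 1 library carried nearly all of it. Zfp36 had 39.1 and 33.3 against control libraries of 0.0442 and 13.6, which differed widely. Zfp69 (at least 88.4-fold), Zfp108 (at least 78.1-fold), Zfp68, Zfp560 and Zfp1 were lowest. In the chromosome 4 run 3 were higher and 3 lower of 16.

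By match, Sirt1 knockdown gave 45 members higher (28.3%) and 38 lower (23.9%) of 159 (median 0.16), against 16.4% and 28.2%, and 54 and 30 when centred on the median of all genes (-0.21). By limma 2 were higher (Zfp982 and Zfp688) and 1 lower (Zfp637) of 156, against 1.43% and 0.406%. Of 92 KRAB-type members 34 were higher and 17 lower (median 0.62), and of 65 others 11 were higher and 21 lower (median -0.35). Without the chromosome 4 run KRAB-type members had 26 higher and 17 lower of 74 (median 0.46). Zfp982 had 92.7 FPKM, the highest of any library, at least 234-fold above the empty control. Zfp978 had 13.8 FPKM, at least 30.2-fold higher, and Zfp988 had 25.2 against 1.92 and 0.514 (3.57). Zfp984 had 30.9 FPKM against 1.74 and 4.53 (2.95). In all, 8 of the 18 chromosome 4 members were higher and none lower, and their sum was 308 FPKM against 59.7 and 60.6. Zfp873 (3.19) and Zfp84 (7.88 FPKM against no reads, at least 54.96-fold) were also among the 5 highest. Zfp637 had 0.113 FPKM against 14.3 and 17.0 (-3.91). Zfp120 (-3.06), Zfp689 (at least 42.7-fold), Zfp787 (at least 54.9-fold) and Zfp691 (at least 22.9-fold) followed. Zfp691 had 0 and 8.31 FPKM in the control libraries, so its bound rests on 1 of them and does not hold against the other. Zfp120 had 1.19 and 14.5 FPKM there, which also differed widely. Among corepressors Dnmt1 (-2.35) alone was past 2-fold. The oocyte markers summed to 140.5 FPKM in this column, the 2-cell markers to 197 and the genes of later cleavage to 72.6, against 147, 329 and 60.2 in the control, and their part was not tested. This column holds 1 library, so no library spread is known, and the 3 treatments of late 2-cell embryos share the control column. In the study inhibitor controls received DMSO, and knockdown controls were injected with scrambled siRNA and Trim21 mRNA. Only 1 late 2-cell control group is among the RNA samples, and which of these controls it was is not stated.

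For the corepressor list the remaining counts were 2 higher and 2 lower for TSA by header (13 tested, the same columns as the 4-cell control by match) and 3 and 4 by match, 4 and 4 for Sirt1 by header, 2 and 2 for the 4-cell control by header, 4 and 4 for 4-cell FK866 by header, and for 4-cell NMN 3 and 3 by header and by match 0 and 1, which was Dnmt3b (-1.25). The shares of all genes to set beside each corepressor count are those given with its comparison. Limma results of the corepressor genes are not given.

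The medians of the 2 kinds in late 2-cell treatments can be set side by side. The KRAB-type and other medians were 0.35 and -0.10 with FK866, 0.36 and -0.40 with TSA by match, and 0.62 and -0.35 with Sirt1 knockdown by match, all against the same 2 control libraries. By header they were -0.36 and -0.52 for TSA, and -0.59 and -0.39 for Sirt1 knockdown. The order of the kinds for Sirt1 knockdown therefore depends on which column it is read from.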

How the data were processed

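RNA-seq values of 18 samples in 9 groups were used, and 24 H3K27ac samples were not analysed here. Before deposit the authors used Trim Galore for trimming, HISAT2 with the mm10 assembly for alignment and featureCounts for reads per gene, and they deposited FPKM with 1 column per group. The submitters' processing notes also name CASAVA 1.4. Since the deposited FPKM are not counts, the authors' DESeq2 test was not repeated. A test added after the data had been seen was limma 3.58.1 in R 4.3.3 (with a trend, 1 mean per column, 7 residual degrees of freedom) on log2(FPKM + 1) of the 16 recovered libraries, with Benjamini-Hochberg adjustment over the genes compared. The members and gene lists were chosen with earlier results of these data known.

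FPKM times exon length (GENCODE M21, 228 members) gave whole multiples of 1 read, from which 96.8% to 97.8% of the values of a column were split into libraries. Totals set the precision, and intervals would cover counting error only. Values of columns with 2 libraries were divided by 2. Fold changes used a pseudocount of 1 FPKM, genes at 1 FPKM or more in either column, and a 2-fold threshold. Replicate samples are not said to be separate cultures, and libraries A and B carry no replicate number. Each of the 9 columns holds a group and was mapped by header, and 5 of them were also read by match.

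The KRAB type and the C2H2 fingers came from the longest open reading frame of GENCODE M21 transcripts, in place of a protein table. Promoters came from RefSeq (GRCm38.p6, 199 members matched) and were checked against the genome. Named genes were, for the 2 comparisons of late 2-cell control with early 2-cell and with FK866, the 10 members with the largest and the 10 with the smallest fold change whose libraries did not overlap, for the others the 5 and 5 in each reading, the 10 highest members, and members with known roles. Chromosome clusters and promoters were described after values had been seen. The alternatives tried were other pseudocounts (0.1 and 5), other minimum levels (5 FPKM or none), undivided values, centring, single libraries, and columns by match. Scripts were tested on simulated data. Python 3.11.15, numpy 2.4.6, pandas 2.3.3, matplotlib 3.10.9 and Biopython 1.88 were used.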

Additional observations from a re-analysis of the deposited data

Results flagged for a closer look

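Several members differed with FK866 in opposite directions at the late 2-cell stage and, by match, at the 4-cell stage, with the libraries of treated and control embryos apart at both stages. They were picked for this, and neither the members that went the same way nor the share of all genes is given. The difference between the stages was not tested. By limma no member passed an adjusted p of 0.05 with FK866 at the late 2-cell stage or, by match, at the 4-cell stage. Zfp600 differed by 1.88 (log2) at the late 2-cell stage and by -1.77 at the 4-cell stage, and Zfp992 by 2.17 and -1.68, both being members of the chromosome 4 run. Zfp800 differed by 1.92 and -1.22, and Zfp264 by 2.25 and -2.79, the latter at least 26.8-fold lower since no reads were found with FK866. Zfp292 differed by -1.39 and 1.45, and Zfp583 by -2.05 and 1.37. Zfp800 had 1.90 and 1.14 FPKM in the late 2-cell control and 7.41 and 9.68 with FK866, then 24.1 and 16.5 in the 4-cell control by match and 1.95 and 14.4 with FK866. Zfp583 had 9.45 and 11.0 against 3.30 and 0.117, then 0 and 2.43 against 3.15 and 6.32. By header the 4-cell values come from other columns, and these pairs of values do not apply.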

How the results depend on the processing

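A pseudocount of 5 FPKM and a minimum of 5 FPKM lowered every count, since few members are high. For members higher and lower, a pseudocount of 5 left 20 and 18 for late 2-cell control over early 2-cell, 9 and 3 for FK866 at the late 2-cell stage, 9 and 16 for NMN there, 15 and 18 for TSA, 13 and 19 for Sirt1, 9 and 17 for the 4-cell control, 28 and 25 for 4-cell FK866 and 30 and 19 for 4-cell NMN, all by header. A minimum of 5 FPKM left, in the same order, 28 and 24, 22 and 11, 15 and 21, 19 and 24, 19 and 28, 15 and 24, 36 and 29, and 35 and 24. For these settings neither the number tested nor the share of all genes is given, so the counts cannot be set beside a background. Centring left 35 lower for TSA and 37 lower for Sirt1. Without division by the number of libraries, 46 were higher in the 4-cell control and 76 lower with 4-cell FK866. By limma, added after the data had been seen, 11 members were higher and 20 lower for late 2-cell control over early 2-cell, 0 and 0 for FK866, 0 and 2 for NMN, 5 and 13 for TSA, 3 and 9 for Sirt1, 2 and 4 for the 4-cell control, 21 and 15 for 4-cell FK866 and 4 and 7 for 4-cell NMN, by header and at an adjusted p under 0.05. At an unadjusted limma p under 0.05 there were 14 and 5 for FK866 and 4 and 29 for NMN. Among all genes there were 405 and 492 of 8514 for FK866 and 290 and 1242 of 8106 for NMN. By match, TSA had 56 higher, 4-cell FK866 27 higher and 26 lower, and 4-cell NMN 18 and 13.

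Single library pairs gave 44 to 52 higher and 56 to 64 lower for late 2-cell control over early 2-cell, 44 to 54 and 34 to 40 for FK866, 26 to 33 and 66 to 84 for NMN, 29 to 40 and 50 to 61 for TSA, 26 to 34 and 55 to 63 for Sirt1, 38 to 47 and 42 to 51 for the 4-cell control, 64 to 70 and 46 to 48 for 4-cell FK866, and 54 and 51 for 4-cell NMN. The 84 used library A of FK866+NMN and library B of FK866, and the 47 used library B of the column headed 4-cell-con and library A of the late 2-cell control. No share of all genes is given for single library pairs, here or above, so these counts show the spread between libraries only.

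Columns by match turned the sign of 13 named values, all between columns that then hold other groups. These were Zfp108 for TSA (1.04), Zfp36 (-0.32), Zfp68 (0.99) and Zfp560 (1.07) for Sirt1, Zfp68 (-1.17), Zfp777 (0.45), Zfp574 (0.75) and Zfp599 (0.88) for 4-cell FK866, and Zfp599 (-0.0071), Zfp574 (-0.61), Zfp433 (-0.028), Zfp715 (0.18) and Zfp771 (0.14) for 4-cell NMN. A further 23 named values moved by match and 9 did not, and under the other settings 446 moved and 921 did not, with none turning sign. That none turned is no check of the directions, since it was largely fixed by how the values were picked. They were picked for large fold changes and, where both columns were split into libraries, for libraries that did not overlap. Another pseudocount or minimum level cannot turn the sign of a fold change. Members at 0 set to their bound shifted no list median by more than 0.054, or 0.107 in the chromosome 4 run. No paired analysis was possible because the columns carry no replicate number.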
